A study of Mus musculus with 8 samples.

Results

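*Islr2*, 3 of the LINGO genes (*Lingo1*, *Lingo2* and *Lingo3*), the 3 AMIGO genes (*Amigo1*, *Amigo2* and *Amigo3*) and the netrin-G ligand genes *Lrrc4* and *Lrrc4c* were followed through bulk RNA-sequencing of the adult mouse periventricular area. They are 9 of the 54307 genes in the deposited table, and all 9 were among the 17669 genes tested after edgeR's low-count filter. The set was chosen by family and because *Islr2* was lower in every *Lrig1* KO mouse. The *Islr2* difference between genotypes is therefore described here, and no p-value is given for it.

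The tissue was the microdissected ventricular-subventricular zone (V-SVZ) with its surroundings, a neural stem cell niche along the lateral ventricle, taken from 1 hemisphere of each mouse at 8 weeks of age. The 4 *Lrig1* KO mice (2 female and 2 male) were homozygous for an *Lrig1* allele carrying CreERT2, which removes LRIG1 constitutively from every cell and not from the niche alone. The 4 WT mice (3 female and 1 male) carried the wild-type alleles, and all 8 mice were on a 129-Elite background with no drug or other treatment named. The study asked what LRIG1 loss does to transcription in this tissue.

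These genes encode single-pass membrane proteins with extracellular leucine-rich repeats followed by immunoglobulin domains, the architecture that LRIG1 also has. Several act at the neuronal surface. LINGO1 is known as a subunit of the Nogo receptor complex, which limits axon growth, and as a brake on oligodendrocyte differentiation. The AMIGO proteins are homophilic adhesion molecules, and LRRC4 and LRRC4C are postsynaptic adhesion proteins (the netrin-G ligands) that bind netrin-G proteins.

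In GRCm38 coordinates from Gencode M21, *Islr2* (ENSMUSG00000051243.15) lies at chr9:58196297-58204319 on the minus strand and *Lingo1* (ENSMUSG00000049556.6) at chr9:56618475-56796468 on the same strand, 1.4 Mb away. *Lrrc4* (ENSMUSG00000049939.7) lies at chr6:28661831-28831747 on the minus strand, on the chromosome of *Lrig1* but 65.8 Mb from it. *Islr2* exons share 181 bases (3.06%) with *Islr* on the same strand and 55 bases (0.929%) with *1600029O15Rik* on the other, and reads from those bases cannot be assigned to 1 gene without doubt. Those neighbours had low medians, of 6.36 CPM (counts scaled to library size) for *Islr* and 0.428 CPM for *1600029O15Rik*. *Amigo2* shares 58 bases (1.83% of its exons) with *Pced1b* on the opposite strand, at a median of 3.76 CPM.

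The RefSeq promoter table (GRCm38.p6) held 14 promoters for the 9 genes. The 250 bases before the start are shown for the 3 genes on which the results below turn, at starts where no annotated exon overlaps them, 5′ to 3′ on the minus strand of the gene. Capitals mark GGGCGG or its reverse complement CCGCCC, a GC-box sequence.
Islr2, chr9:58204320-58204569: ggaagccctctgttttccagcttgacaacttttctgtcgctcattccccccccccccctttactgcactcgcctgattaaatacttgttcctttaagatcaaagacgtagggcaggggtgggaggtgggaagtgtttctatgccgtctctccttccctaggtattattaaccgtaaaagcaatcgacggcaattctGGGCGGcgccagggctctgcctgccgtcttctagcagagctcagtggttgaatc
Lingo1, chr9:56635649-56635898: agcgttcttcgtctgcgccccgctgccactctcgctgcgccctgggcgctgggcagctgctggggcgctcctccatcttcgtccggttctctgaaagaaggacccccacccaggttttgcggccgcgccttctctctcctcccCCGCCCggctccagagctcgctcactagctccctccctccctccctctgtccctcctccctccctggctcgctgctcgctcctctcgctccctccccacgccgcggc
Lrrc4, chr6:28831748-28831997: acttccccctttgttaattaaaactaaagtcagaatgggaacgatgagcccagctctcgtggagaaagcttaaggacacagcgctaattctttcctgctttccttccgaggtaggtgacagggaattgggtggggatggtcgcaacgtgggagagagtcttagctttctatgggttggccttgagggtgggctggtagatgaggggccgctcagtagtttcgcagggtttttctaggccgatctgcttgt
The *Islr2* stretch precedes the most upstream start of the gene and holds 1 such match at 52.4% GC. The *Lingo1* stretch precedes the start of the transcript with the largest share of *Lingo1* TPM, holds 1 match and is 70.4% GC, and lies in an intron of the longer *Lingo1* transcripts. The *Lrrc4* stretch holds none at 51.2% GC. Across the 14 promoters, 7 held GGGCGG on either strand, against 32.7% of the 32851 promoters of the same length in the table. TATAAA, searched on both strands, was in 0 of the 14 and in 12.4% of all. A match describes these letters only.

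Gene counts summed to between 47887437 and 61826150 in WT and between 52664769 and 74482334 in KO mice. *Lrig1* itself was at 13.5 to 45.6 CPM in WT and 1.17 to 4.15 CPM in KO mice, and the genotypes did not overlap. *Lrig1* had an adjusted p = 0.286 in the edgeR comparison, at a log2 fold change of -3.80 ± 0.52 (standard error, SE). Over 20 alternative fits its log2 fold change lay between -4.22 and -3.47, and it passed in 8 of them, with an adjusted p as low as 4.88e-97 in DESeq2 with sex as a covariate. The lowest WT value was that of the male, WT replicate 2. The markers of V-SVZ stem and progenitor cells were all detected, at a summed 181 to 272 CPM, beside 2851 to 8846 CPM for the striatal medium spiny neuron list and 5424 to 6998 CPM for the oligodendrocyte list. No list of the 11 had a marker at 0 in all mice, and the tissue was therefore a mixture in which fewer cells of a type and less RNA per cell cannot be told apart. Summed markers of cortical excitatory neurons lay between 2546 and 3720 CPM in the 5 females and between 4189 and 8254 CPM in the 3 males. This was the 1 list of 11 whose sums did not overlap between the sexes, and 0 lists were apart between genotypes. Overlapping sums do not show equal tissue. Of the cortical markers, 9 of 10 had lower values in KO (median log2 fold change -0.79). All 9 striatal and all 5 oligodendrocyte markers were also lower in KO (medians -0.087 and -0.087). All 3 septal markers were higher (median 1.17), and their highest sum was in KO replicate 2. By edgeR, 0 markers of these 4 lists passed for genotype. WT replicate 2, the only WT male, was highest for cortical and lowest for striatal markers.

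Per unit of length, *Lingo1*, *Lrrc4c* and *Lingo3* were the highest of these genes in the periventricular area and *Amigo3* the lowest. In TPM (scaled to transcript length and library size, mean ± SD of 8 mice) *Lingo1* stood at 78.4 ± 50.5, *Lrrc4c* at 57.8 ± 5.74, *Lingo3* at 50.4 ± 10.02 and *Islr2* at 34.7 ± 6.02. Below them came *Lrrc4* at 25.7 ± 6.18, *Amigo1* at 24.1 ± 5.03, *Lingo2* at 9.09 ± 2.10, *Amigo2* at 5.59 ± 3.02 and *Amigo3* at 0.531 ± 0.086. The 8 neighbouring pairs in this order were compared in log2 TPM within mice, by a two-sided exact permutation of signs with adjustment over the 8 pairs, and 5 differed. *Islr2* exceeded *Lrrc4* in 8 of 8 mice by 0.44 ± 0.22 on the log2 scale (SD, n = 8, exact permutation p = 0.0078, adjusted p = 0.0208), and *Lingo3* exceeded *Islr2* in 7 of 8 (exact permutation p = 0.0234, adjusted p = 0.0375). *Amigo1* exceeded *Lingo2*, and *Amigo2* exceeded *Amigo3*, in 8 of 8 mice each (exact permutation, adjusted p = 0.0208 for both). *Lingo2* exceeded *Amigo2* in 7 of 8 mice (exact permutation, adjusted p = 0.0375). The 3 highest genes could not be ordered beyond their spread, since the exact permutation p was 0.328 between *Lingo1* and *Lrrc4c* and 0.172 between *Lrrc4c* and *Lingo3*. *Lrrc4* and *Amigo1* could not be ordered either (exact permutation p = 0.227). In the 5 females alone no pair could pass, the smallest exact p being 0.0625.

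**Figure D1:**
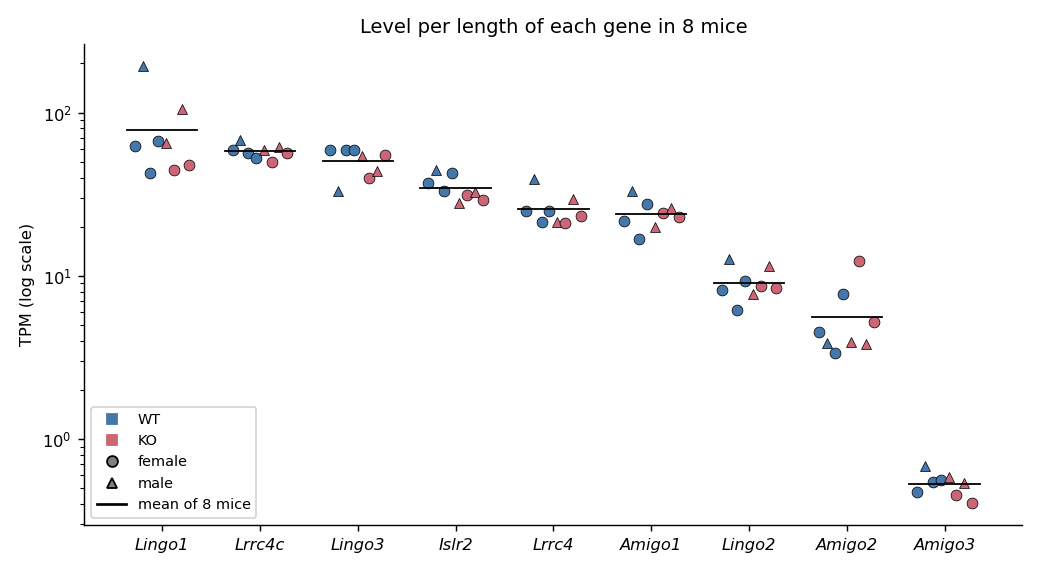
Level of each gene in TPM (log scale) in each of the 8 mice, with WT in blue, KO in red, females as circles and males as triangles, and the mean of 8 mice as a line. *Lingo1* had the widest spread among the 4 highest genes, from 42.8 to 193 TPM, and *Amigo3* lay below 1 TPM in every mouse.

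*Islr2* encodes an immunoglobulin and leucine-rich repeat receptor, also called Linx, that takes part in axon guidance. Its CPM was 106.2, 109.8, 107.7 and 106.8 in WT replicates 1 to 4, and 90.2, 89.3, 86.1 and 80.7 in KO replicates 1 to 4. Every KO value was below every WT value, with a gap from 106.2 to 90.2 CPM between the groups. The means were 107.6 ± 1.58 CPM in WT (SD, n = 4) and 86.6 ± 4.30 CPM in KO (SD, n = 4), so the KO mean was 80.4% of the WT mean. The narrower spread of the WT mice in CPM did not hold in TPM. In TPM the spreads were reversed, at 39.2 ± 5.13 in WT and 30.2 ± 2.12 in KO (SD, n = 4 each). The fitted log2 fold change was -0.31 ± 0.057 (SE). This is the value by which the set was chosen, and 0.877% of all genes tested were likewise lower in KO without overlap of the groups.

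The *Islr2* difference had the same direction within each sex, where the WT males were 1 mouse only. The values below are those by which the set was chosen, so they describe the difference and lend it no further support. The WT females were at 106.2, 107.7 and 106.8 CPM and the KO females at 89.3 and 80.7 CPM. The WT male was at 109.8 CPM and the KO males at 90.2 and 86.1 CPM. The fitted log2 fold change was -0.33 with sex as a covariate, -0.33 in females alone, -0.30 with the cortical marker score as a covariate, and between -0.33 and -0.28 over 20 alternative fits. In TPM, which takes transcript length into account, WT mice lay between 33.1 and 44.3 and KO mice between 27.8 and 32.7, again without overlap. The gap there was narrower, from 33.1 to 32.7 TPM.

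**Figure D2:**
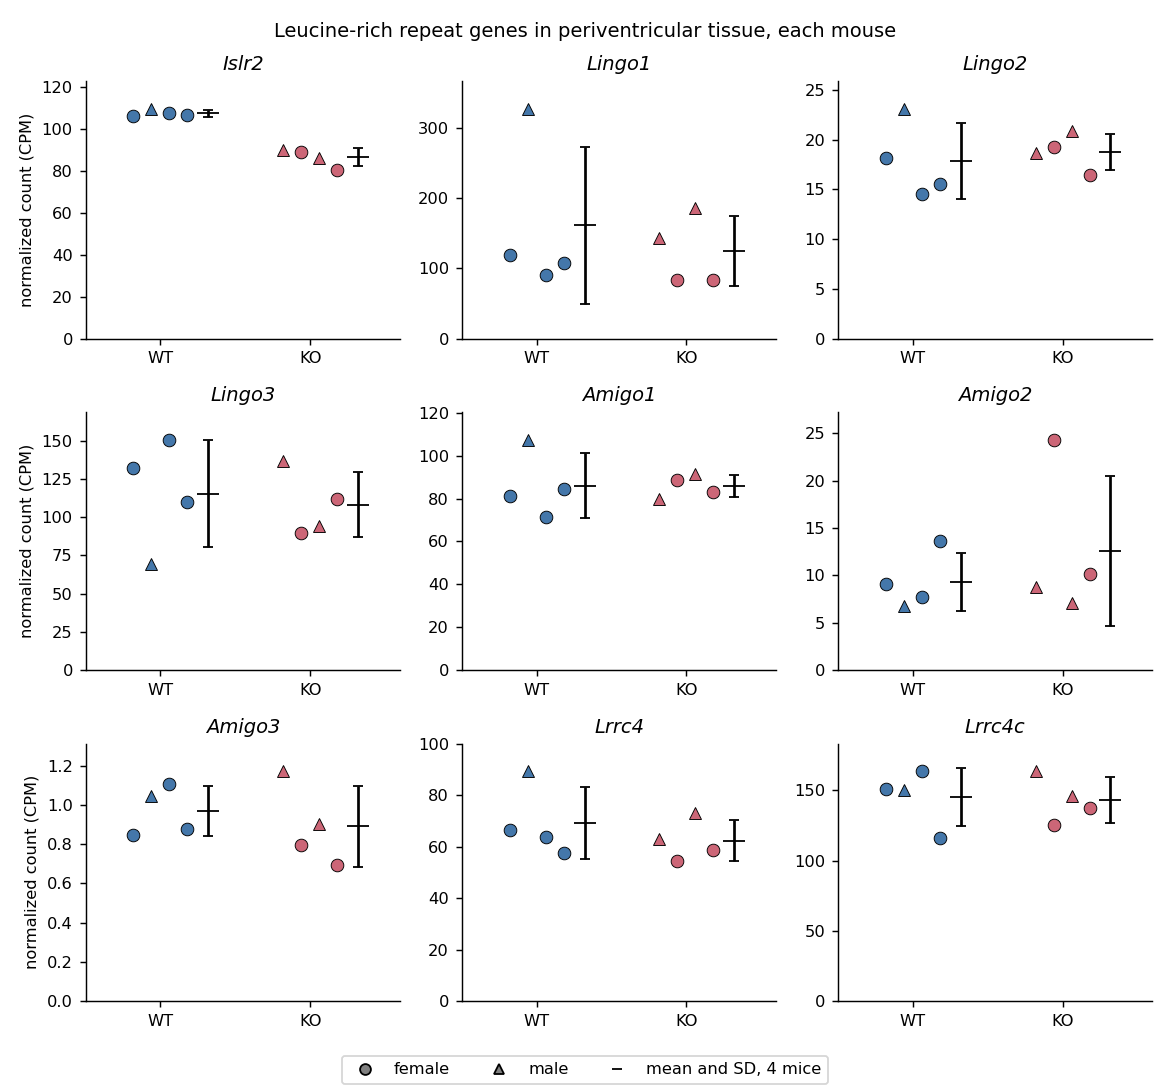
TMM-normalized CPM of each gene in each mouse by genotype (linear axes from 0), with females as circles, males as triangles, and the mean and SD of 4 mice beside each group. *Islr2* was apart between WT (106.2 to 109.8 CPM) and KO (80.7 to 90.2 CPM), while the WT male stood at 326.8 CPM for *Lingo1*.

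Most *Islr2* signal was assigned to starts in the interior of the gene. The transcripts Islr2-202, Islr2-204 and Islr2-208, which start between chr9:58201715 and 58201799, held 49.995 to 66.5% of the gene's TPM. Their share averaged 55.8 ± 4.3% in WT and 62.2 ± 4.1% in KO (SD, n = 4 each), and the ranges overlapped. Their summed level was 21.7 ± 1.5 TPM in WT and 18.7 ± 1.4 TPM in KO. Transcripts from starts at 58202186 to 58202344 held 19.4 to 29.5%, at 10.05 ± 1.5 TPM in WT and 7.6 ± 1.0 TPM in KO. The transcripts from the upstream start whose promoter is printed above held 13.9, 18.1, 11.8 and 17.8% in WT replicates 1 to 4, and 0.0, 18.8, 9.3 and 9.4% in KO replicates 1 to 4. Their level was 6.15 ± 1.96 TPM in WT and 2.90 ± 2.39 TPM in KO (SD, n = 4 each). That start was listed at 0 in KO replicate 1 and was highest in KO replicate 2, so the KO mice did not share 1 pattern. These shares are Salmon's division of reads among overlapping transcripts and carry its uncertainty, which was not estimated.

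*Lingo1* drew on several starts. Lingo1-203, which begins just downstream of the printed promoter, held 39.2 to 49.5% of the gene's TPM, Lingo1-201 held 25.9 to 35.5%, and the group of Lingo1-205, Lingo1-206 and Lingo1-207 held 13.8 to 19.6%. The Lingo1-203 share averaged 44.3 ± 5.6% in WT and 42.4 ± 2.0% in KO (SD, n = 4 each). By sex it averaged 42.5 ± 4.1% in females (n = 5) and 44.8 ± 4.3% in males (n = 3). The mixture of *Lingo1* starts thus varied less between mice than the level of the gene. For the netrin-G1 ligand gene *Lrrc4c*, Lrrc4c-201 held 79.1 to 87.1% in every mouse, and for *Lingo3*, Lingo3-201 held 84.5 to 96.6%.

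**Figure D3:**
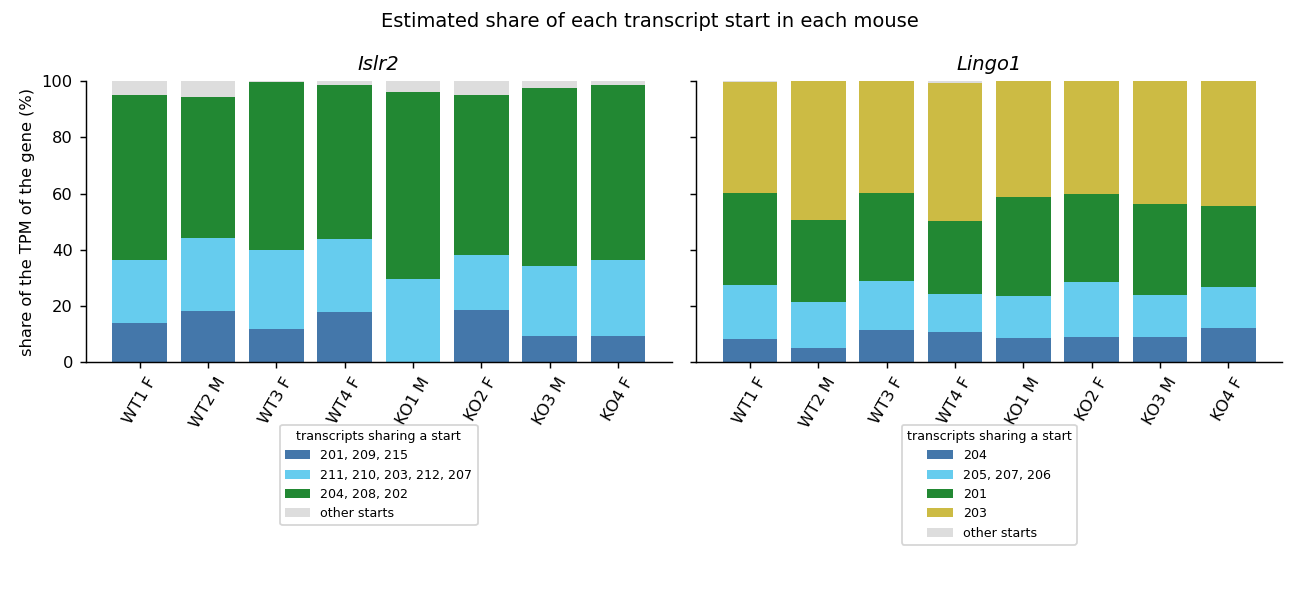
Share (%) of the TPM of *Islr2* and *Lingo1* assigned to each group of transcripts that start together, stacked for each mouse (F female, M male), with transcript numbers in the key and starts that held under 5% in every mouse in light grey. The innermost large *Islr2* start held 49.995 to 66.5%, and the upstream start was listed at 0.0% in KO replicate 1.

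Of the other 8 genes, 0 differed between KO and WT at an adjusted p under 0.1 by edgeR's quasi-likelihood test with adjustment over all genes tested, and 0 had an unadjusted p under 0.05. The background was 1 gene of 17669 (0.00566%), *Gm43079*, with 333 genes (1.88%) at an unadjusted p under 0.05. *Lrig1*, the deleted gene, was not called by this test either (edgeR adjusted p = 0.286), so the lack of a call does not show a lack of change. By DESeq2 0 of the 8 were called as well, beside 12 genes (0.0619%) in all. Of these 8, 6 had a log2 fold change below 0, and their median was -0.06, beside 50.3% of all genes below 0 and a median of -0.00094. With *Islr2*, whose direction was fixed by the choice of the set, it was 7 of 9 with a median of -0.10.

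*Lingo1* CPM was 119.4, 326.8, 90.8 and 107.3 in WT replicates 1 to 4, and 143.1, 83.7, 185.9 and 83.7 in KO replicates 1 to 4. The groups overlapped, the 2 KO males and the WT male being the highest of their groups. The log2 fold change was -0.38 ± 0.44 (SE, edgeR adjusted p = 0.9998) and rose to 0.23 without WT replicate 2. With sex as a covariate it was -0.58 (edgeR adjusted p = 0.555), and DESeq2 with sex as a covariate gave -0.58 with an adjusted p = 0.0679, among 201 calls (1.13%). With the cortical marker score as a covariate it was 0.078 (edgeR adjusted p = 0.9998).

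The other LINGO genes of the set, paralogs of *Lingo1* with less studied roles, overlapped between genotypes. *Lingo2* was at 18.2, 23.1, 14.5 and 15.6 CPM in WT replicates 1 to 4 and at 18.7, 19.2, 20.9 and 16.5 CPM in KO replicates 1 to 4. Its log2 fold change was 0.07 ± 0.15 (SE). *Lingo3* was at 132.2, 69.3, 150.5 and 109.6 CPM in WT and at 136.6, 89.6, 94.0 and 111.9 CPM in KO replicates 1 to 4. Its log2 fold change was -0.10 ± 0.23 (SE), and the WT male was its lowest mouse. The remaining paralog, *Lingo4*, is not of the set and was named after its values were seen. It was at 0.618 to 1.24 CPM in WT, with a log2 fold change of -0.11 ± 0.34 (SE).

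Among the AMIGO genes, which support neurite growth and cell adhesion, *Amigo1* was nearly equal in the 2 genotypes, at 86.1 ± 15.3 CPM in WT and 85.9 ± 5.27 CPM in KO (SD, n = 4 each), with a log2 fold change of -0.0034 ± 0.12 (SE). *Amigo2* was at 9.03, 6.76, 7.72 and 13.6 CPM in WT replicates 1 to 4 and at 8.81, 24.3, 7.11 and 10.1 CPM in KO replicates 1 to 4. KO replicate 2 alone set its direction, since the log2 fold change of 0.44 ± 0.40 (SE) became -0.10 without it. That mouse also had the highest sum of septal markers, 176.0 CPM against 25.5 to 49.9 CPM in the others, and the part of other tissue in its *Amigo2* value was not tested. *Amigo3* lay between 0.69 and 1.17 CPM in all mice, with a log2 fold change of -0.12 ± 0.22 (SE).

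The netrin-G ligand genes overlapped too. *Lrrc4* was at 66.5, 89.4, 64.0 and 57.5 CPM in WT and at 63.0, 54.5, 73.0 and 58.8 CPM in KO replicates 1 to 4, with a log2 fold change of -0.15 ± 0.15 (SE). *Lrrc4c* was at 145.1 ± 20.5 CPM in WT and 142.9 ± 16.1 CPM in KO (SD, n = 4 each), with a log2 fold change of -0.02 ± 0.12 (SE).

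The sex of the mice was a contrast that had not been used to choose the genes. The labelled sexes matched *Xist* and *Ddx3y* in 8 of 8 mice. With genotype in the model, 2 of the 9 genes passed at an adjusted p under 0.1, *Lingo1* and *Lrrc4*, both lower in females, against 657 of all genes (3.72%), of which 507 (2.87%) were lower in females. *Lingo1* was at 83.7 to 119.4 CPM in the 5 females (median 90.8) and at 143.1, 185.9 and 326.8 CPM in the 3 males. Every male was above every female in both genotypes, and the male mean was 2.25 times the female mean. Of all genes, 7.50% did not overlap between the sexes and 4.70% were lower in every female than in every male. The female against male log2 fold change was -1.26 ± 0.16 (SE, edgeR adjusted p = 0.0148). In TPM the sexes overlapped, with females between 42.8 and 67.0 and males between 64.9 and 193.4, so the separation seen in CPM did not hold in TPM.

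*Lrrc4*, whose product binds the netrin-G2 protein made by *Ntng2*, was at 54.5 to 66.5 CPM in females (median 58.8) and at 63.0, 73.0 and 89.4 CPM in males. The sexes overlapped, with a log2 fold change of -0.37 ± 0.090 (SE, edgeR adjusted p = 0.0934), near the threshold. It did not pass with transcript length offsets (edgeR adjusted p = 0.105), and of the fits that left out 1 mouse it passed only in that without KO replicate 1. The remaining 7 genes did not pass. *Amigo2* had 0.88 ± 0.32 (SE, edgeR adjusted p = 0.225), and its adjusted p was 0.0495 in DESeq2. Its log2 fold change fell to 0.47 without KO replicate 2, a female at 24.3 CPM. *Lingo2* had -0.31 ± 0.12 (SE, edgeR adjusted p = 0.259), and *Islr2* had -0.05 ± 0.061 (SE, edgeR adjusted p = 0.764), with females at 98.1 ± 12.4 CPM (SD, n = 5) and males at 95.4 ± 12.7 CPM (SD, n = 3).

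**Figure D4:**
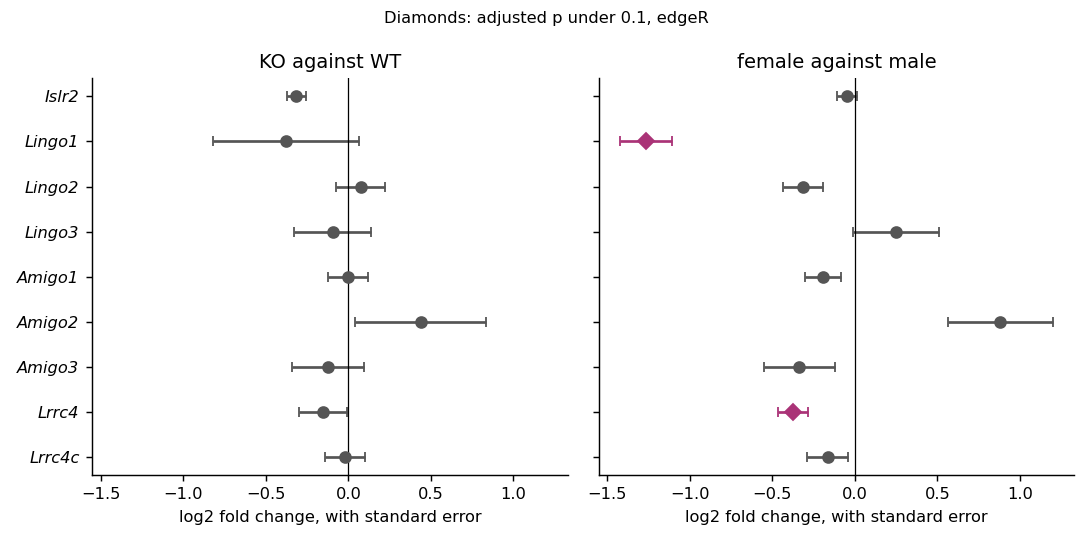
Log2 fold change with its standard error for each gene, KO against WT and female against male, from edgeR, with adjusted p under 0.1 as diamonds. *Lingo1* (-1.26) and *Lrrc4* (-0.37) passed for sex, and none of the genes other than *Islr2* passed for genotype. *Islr2* is drawn for genotype as a description only, since the set was chosen by that difference.

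The sex difference of *Lingo1* moved with markers of cortical excitatory neurons. All 10 of these markers had lower values in females and 8 passed, with a median log2 fold change of -2.41, whereas the 9 striatal markers all had higher values in females (median 0.48) and 0 passed by edgeR, also at an unadjusted p under 0.05. With the cortical score, the mean log2 CPM of the 10 markers, as a covariate, 0 genes were called and *Lingo1* had a log2 fold change of -0.47 (edgeR adjusted p = 0.914). *Xist* was not called in that fit either, so the lack of a call there cannot tell whether *Lingo1* differs by sex. With a score of 8 general neuron markers instead, 30 genes were called and *Lingo1* still passed at -0.86 (edgeR adjusted p = 0.0369). Without WT replicate 2, which had the most cortical markers, 10 genes were called and *Lingo1* had -0.96 (edgeR adjusted p = 0.234). The cortical score was 3.29 to 5.42 in females and 5.66 to 7.44 in males, so sex and cortical marker level cannot be told apart in these mice.

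Over the 8 mice, *Lingo1* log2 CPM followed the cortical score with Pearson's r = 0.96 (exact permutation p = 4.96e-05, adjusted p = 0.00045 over the 9 genes) and Spearman's rho = 0.98 (exact permutation p = 0.000397, adjusted p = 0.0036). Without WT replicate 2 and KO replicate 4, the mice farthest from the median score, r was 0.98. *Lrrc4* had r = 0.86 (exact permutation p = 0.0046, adjusted p = 0.0205) and rho = 0.79 (exact permutation p = 0.0279, adjusted p = 0.110), and r = 0.76 without those 2 mice. *Islr2* had r = 0.39 (exact permutation p = 0.335, adjusted p = 0.377) and rho = 0.40 (exact permutation p = 0.327, adjusted p = 0.405), and r fell to -0.35 without them. The other 6 genes did not pass adjustment by either measure. No correlation was computed within the 5 females or the 3 males, so the relation over the 8 mice was not separated from sex.

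**Figure D5:**
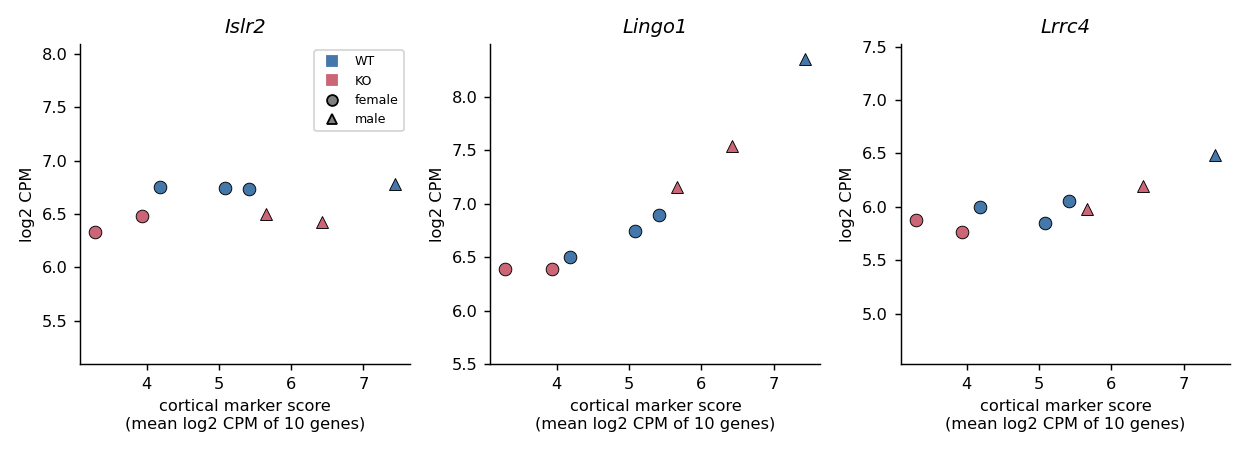
Log2 CPM of *Islr2*, *Lingo1* and *Lrrc4* against the cortical marker score (mean log2 CPM of 10 genes) in each mouse, on vertical axes of equal span, with WT in blue, KO in red, females as circles and males as triangles. *Lingo1* rose along the score (r = 0.96), while every KO mouse lay below every WT mouse for *Islr2*, the difference by which it was chosen. Scores ran from 4.18 to 7.44 in WT and from 3.29 to 6.43 in KO mice.

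Against the general neuron score, *Amigo1* had r = 0.93 (exact permutation p = 0.00082, adjusted p = 0.0074 over the 9 genes) and rho = 0.79 (exact permutation p = 0.0279, adjusted p = 0.238), with r = 0.85 without WT replicate 2 and KO replicate 3. For *Lingo1* r was 0.87 (exact permutation p = 0.0095, adjusted p = 0.0213) with rho = 0.64 (exact permutation p = 0.0962, adjusted p = 0.238), and it rested on those 2 mice, since r was 0.01 without them. *Lingo3* ran the other way, with r = -0.86 (exact permutation p = 0.0046, adjusted p = 0.0209), rho = -0.69 (exact permutation p = 0.0694, adjusted p = 0.238) and r = -0.64 without the 2 mice. *Lingo2* had r = 0.84 (exact permutation p = 0.0075, adjusted p = 0.0213) and rho = 0.62 (exact permutation p = 0.115, adjusted p = 0.238), with r = 0.45 without them. *Lrrc4* had r = 0.81 (exact permutation p = 0.0163, adjusted p = 0.0294) and rho = 0.60 (exact permutation p = 0.132, adjusted p = 0.238), and r = -0.36 without them. By rho 0 of the 9 genes passed adjustment. *Islr2* had r = 0.10 (exact permutation p = 0.776, adjusted p = 0.988) and rho = 0.10 (exact permutation p = 0.840, adjusted p = 0.840), and -0.19 without the pair.

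The genes most like *Islr2* over the 8 mice in log2 CPM were *Prrt1* (r = 0.97, rho = 0.98), a gene for an AMPA receptor-associated membrane protein, *Gm43079* (r = 0.96, rho = 0.71) and *Tfe3* (r = 0.95, rho = 0.98), which encodes a transcription factor of lysosome genes. *Prrt1* averaged 113.7 CPM in WT and 100.1 CPM in KO, and *Tfe3* 33.3 and 30.8 CPM. *Gm43079* averaged 1.08 CPM in WT and was listed at 0 in KO. *Lingo1* was most like *Stx1a*, which encodes a presynaptic fusion protein (r = 0.997, rho = 0.98), *Cckbr*, a receptor for cholecystokinin (r = 0.99, rho = 0.98), and *Fbxo34* (r = 0.99, rho = 1). Within the set, *Lrrc4* was most like *Lingo1* (r = 0.93), whereas *Islr2* and *Lingo1* had r = 0.29. These are the closest of 17669 genes over 8 mice that share depth, sex and dissection, and are given as a description. Since *Islr2* was chosen for lower values in every KO mouse, likeness to it includes the difference between genotypes and is not separate evidence of co-expression.

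Among 31 other leucine-rich repeat genes of the nervous system (the SLITRK, LRRTM, LRFN, FLRT, ELFN and LRRN families and relatives), 0 passed for genotype by edgeR and 0 had an unadjusted p under 0.05. Values were lower in KO for 15 of them and higher for 16 (median log2 fold change 0.0016). The smallest p belonged to *Lrfn3*, a synaptic adhesion gene, at 27.1 ± 0.881 CPM in WT and 24.2 ± 1.66 CPM in KO (SD, n = 4 each, log2 fold change -0.16 ± 0.072 SE). Next came *Lrig2*, a paralog of the deleted gene, at 24.5 ± 1.39 CPM in WT and 26.7 ± 1.99 CPM in KO (SD, n = 4 each, log2 fold change 0.12 ± 0.080 SE), and *Islr*, the neighbour of *Islr2*, at -0.53 ± 0.36 (SE). For sex, 2 of the 31 passed, beside 3.72% of all genes. They were the Nogo receptor homologs *Rtn4rl1* (-0.44, edgeR adjusted p = 0.0430) and *Rtn4rl2* (-3.41, edgeR adjusted p = 0.0391), both lower in females.

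Among 16 partner genes, 12 had lower values in KO (median log2 fold change -0.05), beside 50.3% of all genes (median -0.00094). By edgeR 0 of the 16 passed, also at an unadjusted p under 0.05. *Tnfrsf19*, a Nogo receptor co-receptor, had -0.24 ± 0.13 (SE), and *Ntng1*, which encodes netrin-G1, the binding partner of LRRC4C, 0.31 ± 0.21 (SE). For sex, 4 of the 16 passed, beside 3.72% of all genes, and 2 of the 4 are described here. *Rtn4r*, the Nogo receptor gene and partner of LINGO1, was at 2.43 to 9.37 CPM in females and 14.0 to 76.0 CPM in males (log2 fold change -2.94, edgeR adjusted p = 0.0332). *Ntng2*, which encodes the netrin-G2 bound by LRRC4, was at 6.91 to 15.1 CPM in females and 16.1 to 24.6 CPM in males (-1.28, edgeR adjusted p = 0.0369). With the cortical score as a covariate 0 genes were called for sex, and *Xist* was not called either. That score did not overlap between the sexes, so this fit cannot tell whether *Rtn4r* and *Ntng2* differ by sex.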

How the data were processed

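PolyA-selected libraries were sequenced on 1 lane, base calls were made with bcl2fastq 2.20, and reads were quantified with Salmon against Gencode M29, as described by the authors. The authors deposited estimated counts per gene and, for each mouse, estimated counts and TPM per transcript, without further normalization. The gene counts equalled the summed transcripts of Gencode M21 for all 51 transcripts of these genes. Coordinates come from Gencode M21 (GRCm38), an older build. Identifiers were paired with symbols for 94.8% of genes.

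Estimated counts were rounded and tested with edgeR 4.0.16 (R 4.3.3) with TMM scaling, the filterByExpr filter and the quasi-likelihood test. Genotype was fitted alone and sex beside genotype, with Benjamini-Hochberg adjustment over 17669 genes at a threshold of 0.1. The standard error is the size of the log2 fold change over the square root of F. Log2 CPM had a prior count of 2. TPM of a gene is the sum over its transcripts, and transcript starts within 100 bases were joined. DESeq2 1.42.0 was an alternative, as were other scaling and filters, a robust fit, length offsets, sex, replicate number or a marker score as a covariate, females alone and each mouse left out. The tests were run on simulated data first.

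The members and lists were chosen with earlier results of these data known. The named genes are the 9 members, *Lrig1*, from each list those past the threshold for genotype and the 3 with the smallest p, and the 3 genes most like *Islr2* and *Lingo1*. List genes past the threshold for sex, and the correlations with marker scores, were added after the values were seen. Some list genes that these rules name are not reported here. Each library is labelled as a separate mouse, and p-values measure the spread between these mice. The depth of a mouse was 47887437 to 74482334 counts.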

Additional observations from a re-analysis of the deposited data

Results flagged for a closer look

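Among 24 groups of 4 or more values looked at, 1 sample stood apart, where chance alone flags about 1 in 20. *Lingo1* in WT replicate 2, the only WT male, was at 326.8 CPM, while the nearest other WT mouse was at 119.4 CPM. Its gap was 0.879 of the range of the WT mice, above Dixon's critical value for 4 samples. The same mouse had the highest cortical score, 7.44, and the highest *Lrrc4*, *Lingo2* and *Amigo1* values of all 8 mice. The part of sex and of dissected tissue in this value was not tested separately.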

How the results depend on the processing

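The count of genes called for genotype, 1 as reported, was 2 without a filter, 0 with at least 10 counts in every mouse, 2 with the cortical score, 2 with the neuron score, 2 with sex, 3 among the females, 12 by DESeq2, 201 by DESeq2 with a sex term and 0 to 3 with 1 mouse left out (3 without WT replicate 2). The 8 members other than *Islr2* had 0 calls throughout except 1, *Lingo1*, in DESeq2 with sex, and so 0 to 0 with 1 mouse left out. For sex, 657 calls became 1360 without a filter, 0 with the cortical score, 30 with the neuron score, 1537 in DESeq2 and 10 to 1462 with 1 mouse left out. The lowest was without WT replicate 2 and the highest without KO replicate 1; there were 264 without WT replicate 1, 316 without WT replicate 4, 387 without KO replicate 2 and 59 without KO replicate 3. The 2 member calls for sex became 3 without a filter and 3 in DESeq2, in both with *Amigo2* added. They became 0 with the cortical score, 1 with the neuron score, 1 with length offsets and 0 to 2 with 1 mouse left out. The 5 differing neighbours in level became 0 in females alone and 3 to 4 with 1 mouse left out.

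Replicate numbers did not pair the mice, with correlations of same-numbered deviations of 0.07, -0.31, -0.16 and 0.33. With the replicate block, 0 genes were called for genotype and 10 for sex, with 0 members, and *Amigo1* had 0.011 for genotype.

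Genotype fold changes of 6 of the 8 members other than *Islr2* reversed under some alternative, *Lingo1* and *Amigo2* among them, and those of *Amigo3* and *Lrrc4* in none of 20. For genotype, the cortical score gave 0.078 for *Lingo1*, 0.075 for *Amigo1* and 0.00050 for *Lrrc4c*, the neuron score 0.037 for *Amigo1*, females alone 0.13 for *Amigo1*, and *Lingo3* had 0.0026 with sex and 0.00075 in DESeq2 with sex. For sex, the cortical score gave 0.33 for *Lingo2*, -0.73 for *Lingo3* and 0.32 for *Amigo1*, and the neuron score -0.26 for *Lingo3* and 0.055 for *Amigo1*. With 1 mouse left out, genotype values ran from -0.64 to 0.23 for *Lingo1*, -0.012 to 0.22 for *Lingo2*, -0.28 to 0.059 for *Lingo3*, -0.084 to 0.12 for *Amigo1*, -0.10 to 0.68 for *Amigo2* and -0.11 to 0.041 for *Lrrc4c*, and sex values from -0.18 to 0.51 for *Lingo3* and -0.28 to 0.015 for *Amigo1*. The cause was not tested. *Amigo3* rests on the fewest reads of the 9 genes.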
